A study of Homo sapiens with 12 samples.

Results

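Solute carriers of 6 families that move amino acids across membranes were followed in 2 endometrial cancer cell lines exposed to copper. The members are the 40 genes, of 20332 in the deposited table, whose symbol belongs to SLC1A, SLC3A, SLC7A, SLC36A, SLC38A or SLC43A. The choice used symbols and no measured value. RNA was sequenced from Ishikawa and KLE cells, both grown from human endometrial carcinomas. Each line was either left without added copper (labelled untreated and also vehicle, called untreated here) or kept in 200 µM CuCl2 for 24 h. There were 3 biological replicates in each of the 4 groups, 12 libraries in all. Both lines were cultured in the same medium with serum, and no genetic change was made in either. Each line is a single established culture, so a difference between them is one between these lines and not between tumour types.

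Cells take up most amino acids through such carriers, and the families divide the work. SLC3A2 (CD98hc, 4F2hc) is a heavy chain that does not transport by itself but brings several SLC7A light chains to the plasma membrane: SLC7A5 (LAT1), an exchanger of large neutral amino acids such as leucine, and SLC7A11 (xCT), which imports cystine in exchange for glutamate and so feeds glutathione synthesis. The SLC1A family holds sodium-driven glutamate and aspartate carriers (SLC1A1, SLC1A3) and the neutral exchangers SLC1A4 (ASCT1) and SLC1A5 (ASCT2). SLC38A proteins carry glutamine and other small neutral amino acids, SLC36A proteins work largely at lysosomes and SLC43A1 and SLC43A2 are facilitative carriers of branched-chain and other large neutral amino acids. Transcription of several of these genes is known to respond to amino acid shortage through ATF4 and to oxidants through NRF2.

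Libraries held 14050275 to 25057003 counts. Untreated Ishikawa replicate 2 was the deepest and stood apart from the other replicates of its group: the chi-square per degree of freedom over genes was 8.47 and 12.9 against replicates 1 and 3, and 2.05 to 3.96 for every other pair of replicates. Its summed stromal markers (8 genes) were also the lowest of the 12 libraries, at 7.87 TPM (an abundance scaled to transcript length and library total) against 15.4 to 51.6 TPM in the others. Epithelial markers summed to between 2630 and 6214 TPM in every library, whereas the hormone receptors ESR1 and PGR together reached no more than 0.576 TPM in either line. In Ishikawa cells 7 of 9 epithelial markers were lower with copper (35.3% of all genes), and the other 2 were not called. They summed to 3768 to 4289 TPM untreated against 2630 to 2758 TPM with copper. In KLE cells 4 of the 9 markers were higher and 2 lower (25.6% and 25.2% of all genes). The part of this shift in the results below was not tested, and calls that change without untreated Ishikawa replicate 2 are given beside the results they touch. In bulk RNA, fewer cells of a type and less RNA per cell cannot be told apart.

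A few carriers accounted for most of the transporter RNA, and their order differed between the lines. In untreated Ishikawa cells SLC38A2 (SNAT2) was highest at 429 ± 17.4 TPM (mean ± SD, n = 3), followed by the related SLC38A1 (SNAT1) at 209 ± 7.21 TPM. SLC7A5, SLC1A5 and SLC3A2 came next at 179.8 ± 12.5, 176 ± 13.6 and 148 ± 24.6 TPM, and the ranges of these 3 genes overlapped. In untreated KLE cells SLC38A2 stood at 471 ± 20.8 TPM and SLC7A5, at 431 ± 12.6 TPM, moved to the second place. SLC38A1 at 269.8 ± 6.29 TPM and SLC3A2 at 267 ± 20.4 TPM overlapped there. With copper, SLC7A5 became the highest member in KLE cells at 669 ± 30.1 TPM, above every library of SLC38A2 (549 to 574 TPM). In copper-treated Ishikawa cells SLC38A2 stayed first at 436 ± 11.2 TPM, ahead of SLC7A5 at 282 ± 6.92 TPM.

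**Figure D1:**
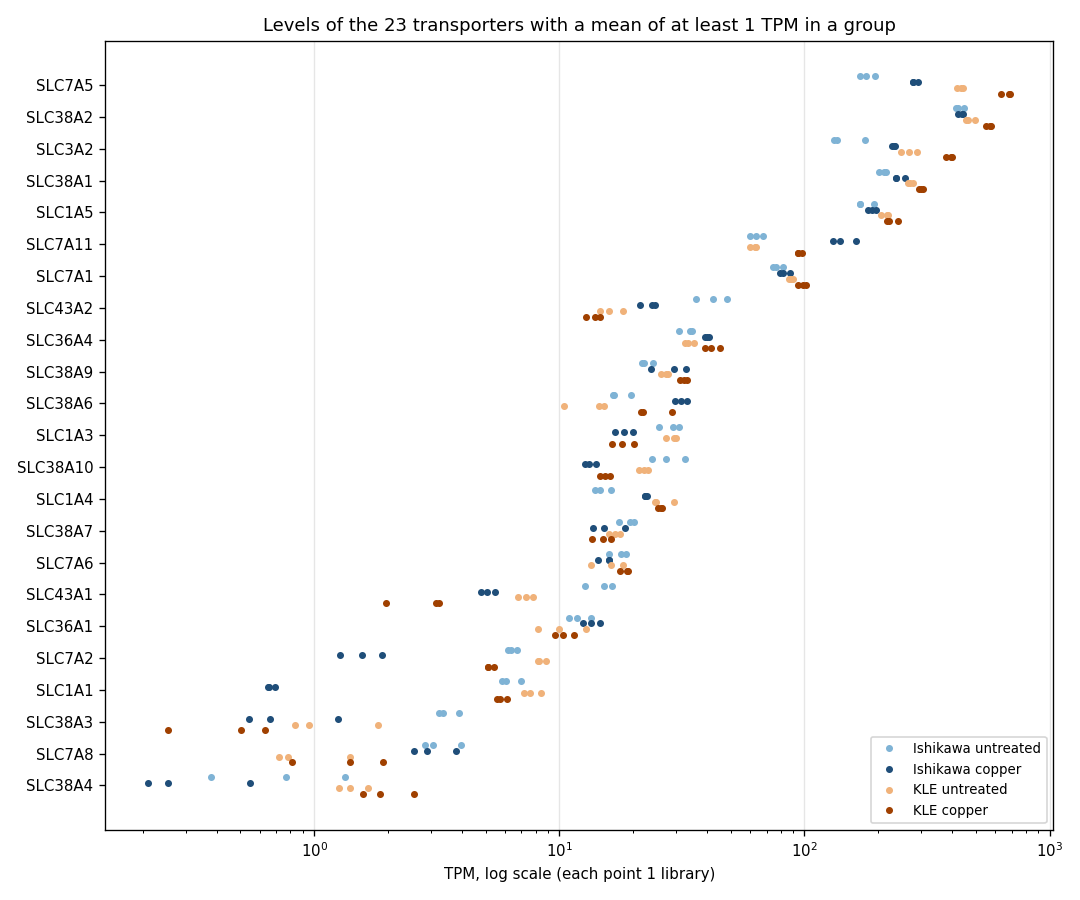
TPM on a log axis for the 23 transporters whose mean reached 1 TPM in at least 1 group. Each point is 1 library and colours mark the 4 groups. SLC7A5 in copper-treated KLE libraries lies furthest right, at 634 to 692 TPM, and SLC1A1 in copper-treated Ishikawa libraries lies apart from its other points.

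The summed level of the 40 members was 1556 ± 75.0 TPM in Ishikawa cells without copper and 1844 ± 51.0 TPM with it. In KLE cells the sums were 2043 ± 60.4 and 2578 ± 27.6 TPM. The libraries of the groups did not overlap in either line. The SLC7A family held much of the change, going from 349 ± 16.3 to 529.6 ± 26.0 TPM in Ishikawa and from 607 ± 15.8 to 888 ± 29.9 TPM in KLE cells, while the summed SLC1A family was 226 ± 12.8 and 231 ± 6.89 TPM in Ishikawa and 277 ± 3.2 and 276 ± 13.6 TPM in KLE cells. The share of SLC38A2 in the summed TPM of all members was 27.6 ± 0.379% in untreated and 23.6 ± 0.666% in copper-treated Ishikawa cells.

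Copper moved most expressed members in each line. In Ishikawa cells 23 members passed the filter on low counts, and edgeR's quasi-likelihood test (Benjamini-Hochberg adjusted p under 0.05, over all genes) called 12 higher and 7 lower. Of all 13359 genes tested there 69.1% were called, 33.8% higher and 35.3% lower, so a called member is not unusual. The median log2 fold change was 0.22 over the members and -0.01 over all genes. Scaling to library totals alone moved the median of all genes to -0.17 and gave 8 members higher and 8 lower: SLC1A5, SLC36A1, SLC36A4 and SLC38A2 were no longer called and SLC38A7 was. Without untreated Ishikawa replicate 2, 14 members were higher and 8 lower of 24 tested. The added calls were SLC7A6 (0.20), SLC7A7 (1.44) and SLC38A4 (-1.46). In that fit SLC7A7 passed the filter through the copper-treated libraries and SLC38A4 through the untreated ones, each where it is higher. Neither of these calls, SLC7A7 or SLC38A4, supports a change. In KLE cells 23 members were tested, 10 higher and 8 lower, against 50.8% of 13031 genes called (25.6% higher, 25.2% lower), with a median of 0.14 over the members and 0.00 over all genes. When more than 1 CPM was required in 3 libraries, SLC38A3 was not tested in KLE cells. There 10 members were then higher and 7 lower of 22. The untreated and copper-treated libraries did not overlap for 19 of 23 members in Ishikawa (72.9% of all genes) and for 18 of 23 in KLE cells (56.7% of all genes).

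Among the 22 members tested in both lines, 16 were called in the same direction in both, 5 in 1 line only and SLC7A8 in neither. Over the 12806 genes tested in both lines, 38.2% were called in the same direction and 2.73% in opposite directions. With a change of at least 1 on the log2 scale required, 6 members remained in Ishikawa (2 higher, SLC7A11 and SLC38A6, and 4 lower, SLC1A1, SLC7A2, SLC38A3 and SLC43A1), against 16.6% of all genes. In KLE cells 2 remained, SLC43A1 and SLC38A3, against 5.45%. SLC38A3, also among the 16, entered the KLE fit through the untreated libraries, where it is higher, so its call there supports no fall.

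**Figure D2:**
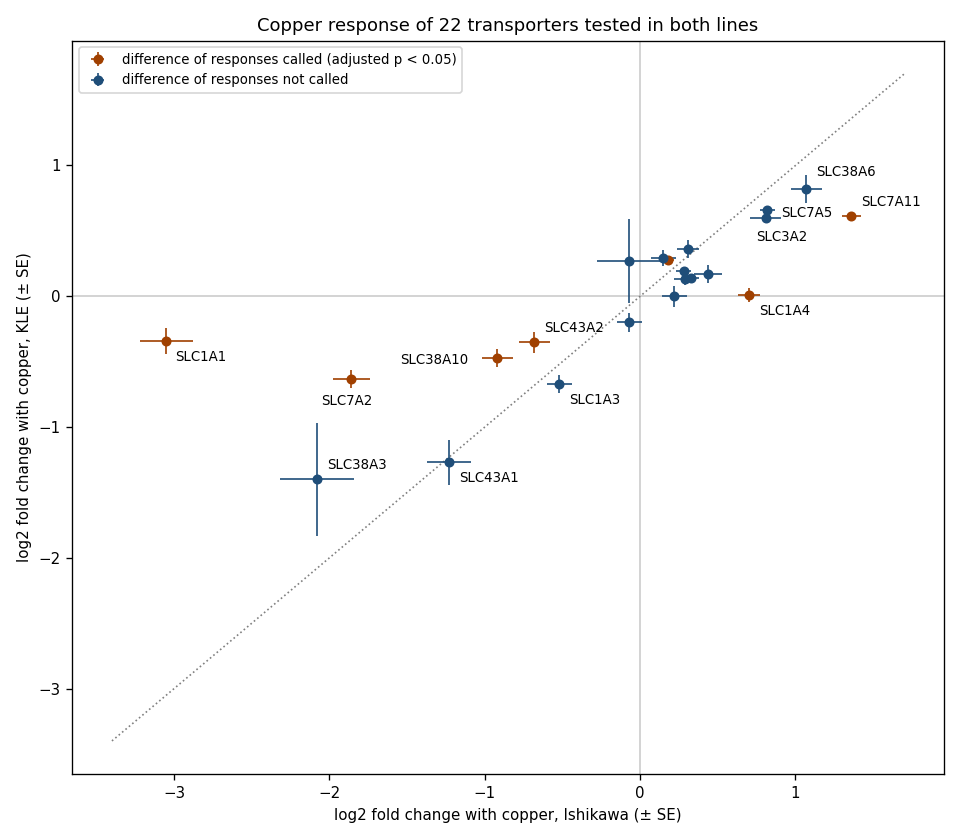
Log2 fold change with copper in KLE cells against that in Ishikawa cells for the 22 members tested in both lines, with SE bars; the dotted line marks equal responses. Orange points are members whose responses were called different between the lines; SLC1A1 lies furthest from the line, at -3.05 in Ishikawa and -0.34 in KLE cells.

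The heavy chain and its most abundant light chains rose in both lines. SLC7A5 (ENSG00000103257; GRCh38 chromosome 16, 87830023 to 87869507) was at 377, 396 and 355 CPM (counts scaled to library size with TMM factors) in untreated Ishikawa replicates 1 to 3 and at 634, 654 and 629.8 CPM with copper. In KLE cells it was at 922, 942 and 945 CPM untreated and at 1512, 1408 and 1516 CPM with copper. Copper-treated libraries were all above the untreated ones of their line, and untreated KLE libraries were all above copper-treated Ishikawa libraries. The log2 fold change was 0.82 ± 0.05 (SE; edgeR adjusted p = 9.18e-10) in Ishikawa and 0.66 ± 0.03 (adjusted p = 8.33e-22) in KLE cells. SLC7A5 has near-identical pseudogene copies (SLC7A5P1 and SLC7A5P2) and an antisense RNA, and SLC7A11 has one too; the deposited table lists none of these under those symbols, so shared reads could not be told apart.

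SLC3A2 (ENSG00000168003; chromosome 11, 62856109 to 62888860) was at 127, 158 and 117 CPM in untreated and 227, 230.2 and 222 CPM in copper-treated Ishikawa cells. KLE libraries gave 236, 255 and 266 CPM untreated and 384, 369 and 391 CPM with copper. The groups did not overlap in either line, and the high untreated Ishikawa value was that of replicate 2. Copper changed SLC3A2 by 0.81 ± 0.10 (edgeR adjusted p = 1.2e-04) in Ishikawa, or 0.94 without untreated replicate 2, and 0.60 ± 0.04 (adjusted p = 1.2e-15) in KLE cells. Without that library the responses of SLC3A2 were called different between the lines (-0.30 on the log2 scale, KLE minus Ishikawa, adjusted p = 0.000198), whereas with it they were not (-0.16 ± 0.13, adjusted p = 0.353).

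The 6 light chains known to pair with SLC3A2 (SLC7A5, SLC7A6, SLC7A7, SLC7A8, SLC7A10 and SLC7A11) were also set against it. Their summed TPM over that of SLC3A2 was 1.81 ± 0.202 in untreated and 1.93 ± 0.080 in copper-treated Ishikawa cells, and 1.92 ± 0.0874 and 2.01 ± 0.0173 in KLE cells. Libraries overlapped in Ishikawa (1.58 to 1.94 against 1.85 to 2.01), with untreated replicate 2 lowest, and met at 1.99 in KLE cells (1.82 to 1.99 against 1.99 to 2.02).

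SLC7A11 (ENSG00000151012; chromosome 4, 138164097 to 138242349) had the largest rise of the members called higher in Ishikawa cells. Its untreated Ishikawa libraries were at 272, 275 and 300.4 CPM and the copper-treated ones at 649, 762 and 678 CPM. KLE cells began at the same level, with 285, 294 and 282 CPM, and reached 439, 422 and 455 CPM. All copper-treated Ishikawa libraries were above all copper-treated KLE libraries. On the log2 scale SLC7A11 rose by 1.36 ± 0.06 (edgeR adjusted p = 1.49e-10) in Ishikawa and 0.61 ± 0.03 (adjusted p = 3.66e-19) in KLE cells, and the responses differed by -0.69 ± 0.07 (adjusted p = 2.64e-07). In Ishikawa this was the 636th highest of 13359 log2 fold changes. The TPM of SLC7A5 over that of SLC7A11 went from 2.82 ± 0.291 to 1.97 ± 0.166 in Ishikawa cells without overlap, and was 6.93 ± 0.0451 and 7.0 ± 0.326 in KLE cells.

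The other light chains were low or moved little. SLC7A6 (y+LAT2), a carrier that exchanges cationic for neutral amino acids, gave 0.29 ± 0.06 (edgeR adjusted p = 6.16e-05) in KLE cells, a call lost on the log2(TPM + 1) scale (0.21, limma adjusted p = 0.142). In Ishikawa cells it gave 0.15 ± 0.08 (edgeR adjusted p = 0.0856), and -0.18 on the log2(TPM + 1) scale. Without untreated Ishikawa replicate 2 it was called higher there (0.20, edgeR adjusted p = 0.0148). The gene overlaps SLC7A6OS, which gave 0.21 ± 0.08 (edgeR adjusted p = 0.0188) in KLE cells, and reads of the 2 could not be told apart where they overlap, since strand is not given. SLC7A8 (LAT2) was 3.28 ± 0.603 TPM in untreated Ishikawa and 0.967 ± 0.375 TPM in untreated KLE cells and was called in neither copper comparison. SLC7A7 (y+LAT1) stayed below 1 TPM on average in every group, SLC7A10 held 3 counts in all libraries together, and the heavy chain SLC3A1, the partner of SLC7A9, held 9 to 21 counts per group.

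**Figure D3:**
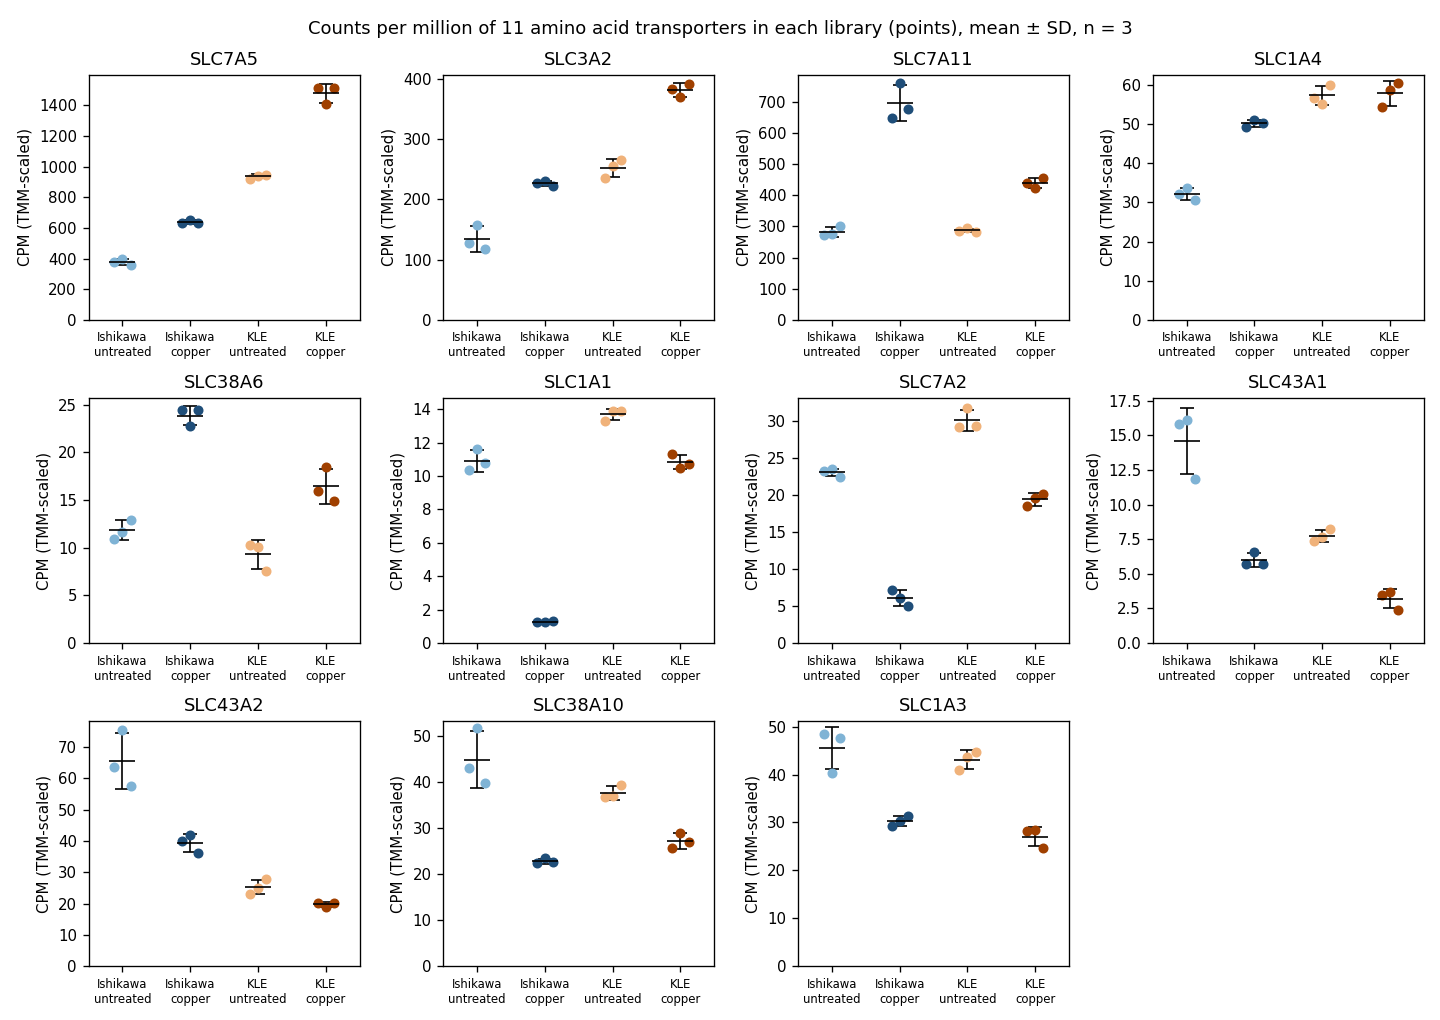
CPM of 11 transporters in each library, with the mean and SD of 3 replicates; every axis starts at 0. SLC7A5, SLC3A2, SLC7A11 and SLC38A6 are higher with copper in both lines, SLC1A4 is higher with copper in Ishikawa cells, and SLC1A1 in copper-treated Ishikawa libraries lies between 1.23 and 1.32 CPM.

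Promoter sequences are shown for 6 members that rose, fell or responded in 1 line. Each is the 250 bases before a start listed by RefSeq in GRCh38.p14, on the strand of the gene, 5′ to 3′. Capitals mark letters searched for on both strands: TGATGNAAN (the core of the C/EBP-ATF element bound by ATF4), TGACNNNGC (the core of the antioxidant element bound by NRF2), TGCACNC or TGCGCNC (cores of the metal response element bound by MTF1) and CACGTG (an E-box). None of these patterns overlaps another in the printed stretches. Where a gene has several listed starts, the window with most kinds of match is printed, so the matches printed do not speak for the other starts. For SLC3A2 and SLC1A4 this is a start inside the gene, downstream of its first base.
SLC7A5: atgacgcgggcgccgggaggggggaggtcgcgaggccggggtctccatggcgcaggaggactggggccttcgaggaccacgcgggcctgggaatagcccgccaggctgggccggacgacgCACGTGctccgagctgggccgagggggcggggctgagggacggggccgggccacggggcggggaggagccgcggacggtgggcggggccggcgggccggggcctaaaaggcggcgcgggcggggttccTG
SLC3A2: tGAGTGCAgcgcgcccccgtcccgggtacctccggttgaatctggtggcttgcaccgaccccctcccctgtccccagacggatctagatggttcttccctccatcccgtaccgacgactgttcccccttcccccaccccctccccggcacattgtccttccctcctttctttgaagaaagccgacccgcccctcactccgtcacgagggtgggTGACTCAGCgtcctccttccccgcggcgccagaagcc
SLC1A4: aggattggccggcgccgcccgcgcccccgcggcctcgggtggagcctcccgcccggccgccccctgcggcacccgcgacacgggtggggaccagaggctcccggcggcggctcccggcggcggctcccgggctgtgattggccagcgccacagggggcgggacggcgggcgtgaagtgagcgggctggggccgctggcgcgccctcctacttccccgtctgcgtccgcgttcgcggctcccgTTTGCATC
SLC38A6: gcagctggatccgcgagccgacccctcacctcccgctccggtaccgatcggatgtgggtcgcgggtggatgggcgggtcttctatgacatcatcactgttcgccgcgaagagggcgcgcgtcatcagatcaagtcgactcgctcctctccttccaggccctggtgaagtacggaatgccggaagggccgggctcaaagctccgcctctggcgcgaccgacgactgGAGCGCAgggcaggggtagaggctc
SLC43A1: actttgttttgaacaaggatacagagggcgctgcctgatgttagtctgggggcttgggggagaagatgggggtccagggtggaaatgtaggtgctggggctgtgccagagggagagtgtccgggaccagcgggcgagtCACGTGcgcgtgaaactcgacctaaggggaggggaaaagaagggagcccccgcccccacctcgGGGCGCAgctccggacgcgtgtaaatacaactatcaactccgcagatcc
SLC1A1: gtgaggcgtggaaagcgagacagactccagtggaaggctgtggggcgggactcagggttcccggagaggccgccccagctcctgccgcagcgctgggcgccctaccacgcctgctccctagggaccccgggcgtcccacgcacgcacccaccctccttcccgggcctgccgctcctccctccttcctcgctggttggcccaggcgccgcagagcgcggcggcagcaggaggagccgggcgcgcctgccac
The stretches lie at chr16:87869508-87869757 (minus strand), chr11:62881449-62881698 (plus), chr2:64989149-64989398 (plus), chr14:60980995-60981244 (plus), chr11:57515703-57515952 (minus) and chr9:4490218-4490467 (plus).

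In these windows the SLC3A2 stretch holds TGACTCAGC, a match to the antioxidant core, starting 37 bases before that internal start, and an MTF1-type core on the reverse strand starting 249 bases before it. SLC7A5 holds an E-box 130 bases before the start, and its last 2 capitals begin TGACGCAGC, an antioxidant core that runs past the start. The SLC1A4 stretch ends with the first 8 letters of TTTGCATCA, a C/EBP-ATF core on the reverse strand. SLC38A6 and SLC43A1 each hold an MTF1-type core on the reverse strand, 25 and 49 bases before the start, and SLC43A1 also holds an E-box 112 bases before it. SLC1A1 holds none of the letters searched.

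Of the 40 members 31 have a window in the RefSeq table, 53 windows in all; SLC7A11 and SLC7A2 have none. Over the full windows of 300 bases (250 before and 50 after the start), TGATGNAAN was found in 6 of the 53 (11.3%) and in 3.61% of all 35116 windows. CACGTG was found in 9 (17% against 7.26%), TGACNNNGC in 7 (13.2% against 13.3%), TGCACNC in 6 (11.3% against 12.1%) and TGCGCNC in 11 (20.8% against 20%). Those with TGATGNAAN belonged to SLC1A3, SLC1A4, SLC1A5, SLC38A1, SLC3A2 and SLC7A1. With copper 5 of these were called higher in Ishikawa cells (33.8% of all genes, 12 of the 23 members tested) and SLC1A3 lower. In KLE cells 4 of the 6 were called higher (25.6% of all genes, 10 of the 23 members tested), SLC1A3 lower and SLC1A4 was not called. A match is only a match of letters and no binding was measured.

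The cationic amino acid carriers moved in opposite directions. SLC7A1 (CAT1), which imports arginine and lysine, rose by 0.28 ± 0.05 (edgeR adjusted p = 8.66e-05) in Ishikawa and 0.19 ± 0.03 (adjusted p = 1.35e-05) in KLE cells. On the log2(TPM + 1) scale the Ishikawa value was 0.09 and not called. SLC7A2 (CAT2, ENSG00000003989) was at 23.2, 23.5 and 22.5 CPM in untreated Ishikawa libraries and at 7.16, 6.05 and 4.97 CPM with copper. Its KLE libraries were at 29.1, 31.8 and 29.3 CPM untreated and at 18.5, 19.6 and 20.1 CPM with copper. No copper-treated library reached an untreated one of its line. Copper lowered SLC7A2, with log2 fold changes of -1.86 ± 0.12 (adjusted p = 3.89e-09) in Ishikawa and -0.63 ± 0.07 (adjusted p = 2.28e-09) in KLE cells, and the responses differed by 1.28 ± 0.14 (adjusted p = 1.03e-07).

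The glutamate carrier SLC1A1 (EAAT3, ENSG00000106688; chromosome 9, 4490468 to 4587469), which also takes up cysteine, had the largest fall of any member. Untreated Ishikawa libraries were at 10.3, 11.6 and 10.8 CPM and copper-treated ones at 1.25, 1.23 and 1.32 CPM. KLE libraries were at 13.3, 13.9 and 13.9 CPM untreated and at 11.3, 10.5 and 10.7 CPM with copper. The groups did not overlap in either line, and copper-treated KLE cells held about the level of untreated Ishikawa cells. As log2 fold changes these were -3.05 ± 0.17 (edgeR adjusted p = 5.7e-10) in Ishikawa, the 27th lowest of 13359 genes, and -0.34 ± 0.10 (adjusted p = 0.00631) in KLE cells. The responses differed by 2.77 ± 0.18 (adjusted p = 5.16e-11). SLC1A1 and SLC7A11, which carry cysteine and cystine, had the largest fall and the largest rise of the called members in Ishikawa cells.

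SLC1A3 (EAAT1, ENSG00000079215; chromosome 5, 36596588 to 36688334), another glutamate and aspartate carrier, fell by a similar amount in both lines. It was at 48.4, 40.4 and 47.6 CPM in untreated and 29.3, 30.4 and 31.4 CPM in copper-treated Ishikawa cells. In KLE cells the values were 40.9, 43.8 and 44.6 CPM and 28.1, 28.3 and 24.7 CPM. All copper-treated libraries were below all untreated ones, across both lines. The falls amounted to log2 fold changes of -0.52 ± 0.08 (edgeR adjusted p = 4.52e-05) in Ishikawa and -0.67 ± 0.07 (adjusted p = 3.87e-11) in KLE cells, and the difference of -0.09 ± 0.11 was not called (adjusted p = 0.505).

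Of the neutral exchangers in the family, SLC1A4 (ENSG00000115902; chromosome 2, 64988479 to 65023865), which carries serine and alanine, responded in Ishikawa cells. It was at 32.1, 33.7 and 30.7 CPM untreated and at 49.4, 51.0 and 50.2 CPM with copper. KLE libraries were at 56.8, 55.3 and 60.1 CPM and at 54.4, 58.7 and 60.7 CPM. The KLE groups overlapped, and all KLE libraries were above all Ishikawa libraries. On the log2 scale SLC1A4 changed by 0.70 ± 0.07 (edgeR adjusted p = 3.93e-07) in Ishikawa and 0.01 ± 0.05 (adjusted p = 0.873) in KLE cells, with a difference of -0.63 ± 0.09 (adjusted p = 3.47e-06). SLC1A5, the main glutamine exchanger, rose by 0.29 ± 0.07 (adjusted p = 0.00178) in Ishikawa and 0.13 ± 0.04 (adjusted p = 0.00219) in KLE cells. Its Ishikawa call was lost with library totals alone (0.14), and on the log2(TPM + 1) scale neither line was called (0.10 and 0.08).

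Among the SLC38A carriers, SLC38A6 (ENSG00000139974; chromosome 14, 60981245 to 61083733) rose most. It was at 10.9, 11.6 and 12.9 CPM in untreated and 24.4, 22.7 and 24.4 CPM in copper-treated Ishikawa cells, and at 10.3, 10.1 and 7.59 CPM and 15.9, 18.5 and 14.9 CPM in KLE cells. Copper-treated libraries of both lines were all above untreated libraries of both lines. For SLC38A6 the log2 fold change was 1.07 ± 0.10 (edgeR adjusted p = 1.4e-07) in Ishikawa and 0.82 ± 0.11 (adjusted p = 1.42e-07) in KLE cells. The gene overlaps TRMT5, a tRNA methyltransferase gene, and whether counting used strand is not given in the sources used here, so reads of the 2 could not be told apart where they overlap. TRMT5 itself was lower with copper, by -0.52 ± 0.08 (adjusted p = 3.91e-05) in Ishikawa and -0.20 ± 0.07 (adjusted p = 0.0137) in KLE cells.

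SLC38A10 (ENSG00000157637; chromosome 17, 81244811 to 81295307), a less studied member of the family, fell. It was at 43, 51.7 and 39.7 CPM in untreated and 22.5, 23.4 and 22.5 CPM in copper-treated Ishikawa cells. KLE libraries were at 36.6, 36.9 and 39.4 CPM untreated and at 25.6, 28.9 and 27 CPM with copper. No library of one group entered the range of the other group of its line, and untreated Ishikawa replicate 2 was the highest. The log2 fold change was -0.92 ± 0.10 (edgeR adjusted p = 8.04e-07; -0.81 without that library) in Ishikawa and -0.47 ± 0.07 (adjusted p = 2e-07) in KLE cells.

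The 2 most abundant SLC38A genes rose by small amounts in both lines. SLC38A2, whose protein is known to be made in larger amounts when amino acids are short, changed by 0.18 ± 0.04 (edgeR adjusted p = 4.99e-04) in Ishikawa and 0.28 ± 0.03 (adjusted p = 3.81e-11) in KLE cells. SLC38A1 changed by 0.33 ± 0.05 (adjusted p = 1.98e-05) and 0.14 ± 0.03 (adjusted p = 7.68e-05). For SLC38A2 the Ishikawa call was lost with library totals alone (0.03), with upper-quartile factors (0.07) and on both TPM scales (0.02).

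SLC38A3 (SNAT3), a glutamine carrier best known from liver and kidney, was low and was called lower in both lines. Untreated Ishikawa libraries were at 4.28, 3.97 and 3.49 CPM and copper-treated ones at 0.835, 0.940 and 0.878 CPM, a log2 fold change of -2.08 ± 0.24 (edgeR adjusted p = 2.26e-06). In KLE cells the values were 1.06, 2.42 and 0.836 CPM untreated and 0.373, 0.398 and 0.894 CPM with copper, and the groups overlapped. The KLE change of -1.40 ± 0.43 (adjusted p = 0.00803) rested on untreated replicate 2 and was -0.77 without it and not called. SLC38A3 entered the KLE fit through the untreated libraries, where it is higher, so its KLE call supports no fall. SLC38A4 (SNAT4), at 1.44 ± 0.203 TPM in untreated KLE and 0.826 ± 0.481 TPM in untreated Ishikawa cells, passed the filter with KLE libraries present but not with the 6 Ishikawa libraries alone. In KLE cells it gave 0.38 ± 0.23 (adjusted p = 0.162).

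The lysosomal members changed little. SLC36A4 rose by 0.31 ± 0.07 (edgeR adjusted p = 0.00124) in Ishikawa and 0.36 ± 0.07 (adjusted p = 1.78e-05) in KLE cells. SLC38A9, which senses arginine in the lysosome for mTORC1, rose by 0.44 ± 0.09 (adjusted p = 4.57e-04) in Ishikawa and gave 0.17 ± 0.07 (adjusted p = 0.0560) in KLE cells. SLC36A1 (PAT1), a proton-coupled exporter of small amino acids from lysosomes, gave 0.22 ± 0.08 (adjusted p = 0.0238) in Ishikawa and 0.00 ± 0.08 (adjusted p = 0.973) in KLE cells. The Ishikawa call was lost with upper-quartile factors (0.11), library totals (0.07) and both TPM scales (0.16 and 0.17). It was also lost in 4 of the 6 fits that left out 1 library. SLC36A1 overlaps FAT2, an abundant gene that fell by 1.12 on the log2 scale in both lines, which limits its value in the same way as for SLC38A6. SLC38A7, a lysosomal glutamine exporter, was called lower in KLE cells at -0.20 ± 0.07 (adjusted p = 0.0183), a call lost in 2 of 6 such fits, with DESeq2 and on the TPM scales.

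Both expressed facilitative carriers were called lower in both lines, although for SLC43A2 in KLE cells the call was lost on the log2(TPM + 1) scale (-0.22, limma adjusted p = 0.0924). SLC43A1 (LAT3, ENSG00000149150; chromosome 11, 57484534 to 57515702) was at 15.9, 16.1 and 11.9 CPM in untreated and 5.72, 6.58 and 5.71 CPM in copper-treated Ishikawa cells. KLE libraries were at 7.39, 7.64 and 8.23 CPM untreated and at 3.48, 3.72 and 2.41 CPM with copper. The groups did not overlap. The log2 fold change was -1.23 ± 0.14 (edgeR adjusted p = 2.17e-06) in Ishikawa and -1.27 ± 0.17 (adjusted p = 3.5e-08) in KLE cells, and the difference of 0.01 ± 0.24 was not called (adjusted p = 0.971).

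SLC43A2 (LAT4, ENSG00000167703; chromosome 17, 1569254 to 1630088) was at 63.6, 75.5 and 57.7 CPM in untreated and 40.0, 42.1 and 36.2 CPM in copper-treated Ishikawa cells. In KLE cells it was at 23.1, 25.0 and 27.8 CPM and at 20.3, 18.9 and 20.2 CPM. Each copper-treated group lay below its untreated group, and all KLE libraries lay below all Ishikawa libraries. The log2 fold change was -0.68 ± 0.10 (edgeR adjusted p = 3.03e-05; -0.57 without untreated replicate 2) in Ishikawa and -0.35 ± 0.08 (adjusted p = 3.02e-04) in KLE cells. SLC43A1 and SLC43A2 carry many of the substrates of SLC7A5, which rose, but without exchange.

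In all, 24 members entered at least 1 fit and 16 entered none. Those 16 held at most 28 counts in any group. SLC7A3, SLC7A13 and SLC7A14 had 0 counts in all 12 libraries, where a count of 0 allows up to 3 counts, or 0.115 to 0.219 CPM by library (counting error only). SLC1A7 (EAAT5) had 3 counts in untreated and 28 in copper-treated Ishikawa cells, a ratio of 11.4 after scaling to library size, with a 95% counting interval of 3.52 to 58.6. SLC36A2 had 0 and 8 counts there, and SLC1A2 (EAAT2) 2 and 24 counts in untreated and copper-treated KLE cells (0.222 ± 0.345 TPM in the latter), 21 of the 24 in copper-treated replicate 1. These 3 were called higher when no filter on counts was applied, and their levels stayed below 1 TPM.

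The responses of 8 members were called different between the lines, 6 with a higher value in KLE and 2 with a higher value in Ishikawa cells, of 24 tested, against 45.4% of 13663 genes (24.6% and 20.8%). Leaving out 1 library gave 4 to 6 and 2 to 5: the split was 6 and 5 without untreated Ishikawa replicate 2 (SLC3A2, SLC1A5 at -0.20 and SLC7A5 at -0.14 were added), 4 and 5 without copper-treated Ishikawa replicate 3, and 4 and 4 without copper-treated Ishikawa replicate 1, untreated KLE replicate 1 or copper-treated KLE replicate 3. It was 6 and 4 with DESeq2 and with RLE factors. Of all genes, 2581 were higher and 3000 lower with DESeq2, and 2942 and 3196 with RLE factors. With edgeR and TMM factors these were 3358 and 2848. The median difference over all genes was 0.034 there, and -0.007 with DESeq2 and with RLE factors. The 6 were SLC1A1, SLC7A2, SLC38A10, SLC43A2, SLC38A2 and SLC38A4. SLC38A4 entered the fit through the KLE libraries, where it is high, so its call supports no difference; without it 5 and 2 of 23 were called. For SLC1A1, SLC7A2, SLC38A10 and SLC43A2 the fall was smaller in KLE cells, and for SLC38A2 the rise was larger there. The 2 were SLC7A11 and SLC1A4, which rose more in Ishikawa cells. SLC7A5 gave -0.11 ± 0.05 (edgeR adjusted p = 0.121), but was called with DESeq2 (-0.15) and with RLE factors (-0.15). SLC38A1 gave -0.13 ± 0.05 (edgeR adjusted p = 0.0543). It was called with DESeq2 and RLE factors (-0.17 in both), with limma-voom (-0.14) and with no count filter (-0.16). A difference that was not called does not show equal responses.

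Before copper, the lines already differed in most expressed members. Of 24 tested, 11 were higher and 8 lower in untreated KLE than in untreated Ishikawa cells (50.0% of 13663 genes called, 24.5% higher and 25.6% lower), and libraries did not overlap for 19 (55.1% of genes). SLC38A4 (1.73) is among the 11 and the 19. It entered this fit through the KLE libraries, where it is high, so its call supports no difference. Without untreated Ishikawa replicate 2 the split was 11 higher and 5 lower, with SLC36A1 (-0.15), SLC38A10 (-0.14) and SLC38A7 (-0.14) no longer called. It was 11 and 6 without untreated Ishikawa replicate 3 or any 1 of the untreated KLE replicates. SLC7A5 (1.32 ± 0.04, edgeR adjusted p = 2.18e-18), SLC3A2 (0.91 ± 0.09, adjusted p = 9.08e-06) and SLC1A4 (0.83 ± 0.06, adjusted p = 6.77e-11) were higher in KLE cells. SLC7A8 (-1.62 ± 0.28, adjusted p = 3.34e-05), SLC43A2 (-1.38 ± 0.09, adjusted p = 4.1e-11) and SLC43A1 (-0.92 ± 0.14, adjusted p = 6.07e-06) were lower. SLC7A11 did not differ beyond its spread (0.02 ± 0.05, adjusted p = 0.740). Line and culture history cannot be told apart. This comparison and the difference of responses share the untreated libraries.

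Genes that work beside these carriers were counted in lists chosen with earlier results of these data known. The counts of every list below stand beside the shares over all genes tested. These were 33.8% higher and 35.3% lower in Ishikawa, and 25.6% higher and 25.2% lower in KLE cells. Of 11 genes of cystine reduction and glutathione synthesis, 7 were higher and 3 lower in Ishikawa (median 0.80) and 6 higher and 2 lower in KLE cells (median 0.15). GCLM, a subunit of the ligase that limits glutathione synthesis, rose by 2.37 ± 0.06 (edgeR adjusted p = 2.07e-13) and 1.49 ± 0.05 (adjusted p = 6.29e-24). TXNRD1, thioredoxin reductase, went from 789 ± 19.0 to 1980 ± 43.7 CPM in Ishikawa and from 1005 ± 13.8 to 2125 ± 75.4 CPM in KLE cells. CHAC1, which breaks down glutathione, rose by 0.85 ± 0.19 (adjusted p = 0.00211) in Ishikawa and gave 0.05 ± 0.15 (adjusted p = 0.800) in KLE cells.

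Of 18 genes of the amino acid response from GCN2 to ATF4, 11 were higher and 6 lower in Ishikawa cells (median 0.55), and 4 higher and 3 lower in KLE cells (median 0.04). The stress-induced factor ATF3 rose by 3.48 ± 0.07 (edgeR adjusted p = 1.2e-14) in Ishikawa and 0.84 ± 0.07 (adjusted p = 7.85e-12) in KLE cells. DDIT3 (CHOP) rose by 1.27 ± 0.09 (adjusted p = 6.47e-09) and TRIB3, an inhibitor within the ATF4 response, by 1.34 ± 0.10 (adjusted p = 1.19e-07) in Ishikawa. In KLE cells these gave 0.15 ± 0.11 (adjusted p = 0.263) and 0.11 ± 0.05 (adjusted p = 0.0900). The difference of responses was called for both (DDIT3 -1.07, adjusted p = 4.5e-06; TRIB3 -1.16, adjusted p = 5.92e-06).

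In the list of amino acid sensing upstream of mTORC1, 12 of 39 genes were higher and 13 lower in Ishikawa cells (median 0.03). That is near the shares of all genes there (33.8% and 35.3%). In KLE cells 14 were higher and 5 lower (median 0.08), against 25.6% and 25.2% of all genes. SESN2, a leucine sensor, rose by 2.47 ± 0.11 (edgeR adjusted p = 2.98e-09) in Ishikawa and 0.62 ± 0.07 (adjusted p = 6.19e-08) in KLE cells. The Ragulator subunit LAMTOR3 and the GTPase RRAGC also rose in both lines, and the arginine sensor CASTOR1 fell in both (-0.55 ± 0.18 and -1.03 ± 0.18).

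Of 24 tested genes of amino acid synthesis and glutamine use, 8 were higher and 12 lower in Ishikawa, and 7 higher and 12 lower in KLE cells. CTH, which makes cysteine from cystathionine, rose by 1.47 ± 0.09 (edgeR adjusted p = 1.4e-09) and 0.47 ± 0.10 (adjusted p = 8.85e-05). Asparagine synthetase ASNS rose by 0.81 ± 0.05 (adjusted p = 1.27e-09) in Ishikawa and gave -0.02 ± 0.12 (adjusted p = 0.890) in KLE cells. ASS1, of arginine synthesis, fell in both lines by 0.30 and 0.93 on the log2 scale.

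Amino acid carriers of other families gave fewer calls higher than lower in Ishikawa cells. Of 16 tested there 2 were higher and 7 lower (median -0.35), against 33.8% and 35.3% of all genes. Of 15 in KLE cells 4 were higher and 5 lower (median -0.24), near the shares of all genes there (25.6% and 25.2%). SLC6A20, a proline carrier, fell by 1.39 and 1.32 on the log2 scale, and SLC16A10, a carrier of aromatic amino acids, by 1.28 and 1.15. SLC6A8, which carries creatine, fell by 1.35 in Ishikawa and gave -0.24 ± 0.12 (edgeR adjusted p = 0.0975) in KLE cells. The mitochondrial carriers gave 4 higher and 4 lower of 10 in Ishikawa (median 0.00), and 6 higher with 4 not called in KLE cells (median 0.22). SLC25A44, which brings branched-chain amino acids into mitochondria, rose by 1.38 ± 0.07 (edgeR adjusted p = 5.77e-10) and 0.34 ± 0.06 (adjusted p = 2.53e-05). SLC25A22, a mitochondrial glutamate carrier, fell in Ishikawa (-0.63 ± 0.10, adjusted p = 7.37e-05) and rose in KLE cells (0.24 ± 0.08, adjusted p = 0.00802).

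Partners of the carriers and ubiquitin ligases that remove them gave 7 higher and 6 lower of 17 in Ishikawa (33.8% and 35.3% of all genes). In KLE cells they gave 6 higher and 4 lower of 16 (25.6% and 25.2% of all genes). CD44, whose variant form is known to hold SLC7A11 at the membrane, rose from 51.5 ± 1.66 to 103 ± 4.56 CPM in Ishikawa and from 380.1 ± 5.86 to 675 ± 3.94 CPM in KLE cells. Isoforms were not told apart. The ligases NEDD4L and NEDD4 rose by 1.05 ± 0.05 (edgeR adjusted p = 3.27e-10) and 1.05 ± 0.11 (adjusted p = 7.34e-07) in Ishikawa, and by 0.57 ± 0.05 (adjusted p = 8.71e-14) and 0.45 ± 0.06 (adjusted p = 7.33e-08) in KLE cells.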

How the data were processed

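RNA-seq was analysed from 12 libraries in 4 groups, each with 3 biological replicates, as labelled. The authors deposited counts per gene as whole numbers, which differ by at most 0.5 from the expected counts in the authors' all-genes table, and TPM. The submitters' processing notes name GRCh38.p14 and, among other tools, RSEM and HISAT2 2.1.0; what each did, the annotation release and the strand setting were not given in the sources used here. Whole counts of all genes were tested with edgeR 4.0.16 in R 4.3.3 (quasi-likelihood, robust, two-sided; TMM factors; filterByExpr; no replicate block), within each line on its 6 libraries and across lines on all 12, and called at a Benjamini-Hochberg adjusted p under 0.05. The SE is the absolute log2 fold change divided by the square root of F. DESeq2 1.42.0 and limma 3.58.1 served as alternatives, and the fits were tested on simulated data. Values per library are given for SLC1A1, SLC7A11, SLC7A5 and SLC3A2, for members that reach a group mean of 5 TPM and are called with a log2 change of 0.58 or more in size, and for SLC38A3, chosen after its values were seen. Genes named from the other lists are among the 4 per list that changed most of those called with a group mean of 5 TPM or more. The members and lists were chosen with earlier results of these data known. Positions and promoters come from RefSeq on GRCh38.p14.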

Additional observations from a re-analysis of the deposited data

Results flagged for a closer look

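Each of the following members had a copper response that was called different between the lines (KLE minus Ishikawa, log2 scale, edgeR's quasi-likelihood test over all 12 libraries). The difference was 2.77 for SLC1A1 (adjusted p = 5.16e-11) and 1.28 for SLC7A2 (adjusted p = 1.03e-07), and their 4 groups of libraries did not overlap within either line. It was -0.69 for SLC7A11 (adjusted p = 2.64e-07) and -0.63 for SLC1A4 (adjusted p = 3.47e-06). SLC38A10 gave 0.51 (adjusted p = 0.00142), or 0.39 without untreated Ishikawa replicate 2. The calls of the others were lost in some of the 12 fits that left out 1 library. SLC43A2 at 0.39 (adjusted p = 0.0238) lost its call in 6 of them and SLC38A2 at 0.15 (adjusted p = 0.00638) in 5. In the 5 fits that lost SLC38A2 the median difference over all genes was -0.013 to -0.009, against 0.034 with all 12 libraries. Whether that shift accounts for the loss was not tested. SLC38A4 at 1.57 (adjusted p = 0.0144) lost its call without untreated Ishikawa replicate 3, where it was 1.18. SLC38A4 entered this fit through the KLE libraries, where it is high, so its call supports no difference, and on the log2(TPM + 1) scale it was not called (0.71, limma adjusted p = 0.0522).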

How the results depend on the processing

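The counts of called members were 19 in Ishikawa, 18 in KLE, 8 for the difference of responses and 19 between untreated lines. Requiring a log2 change of 1 or more in size gave 6, 2, 3 and 5. All other planned settings stayed within 1.5 times of these counts, and leaving out 1 library gave 18 to 22, 17 to 18, 7 to 11 and 16 to 19. With the replicate number as a block the counts were 19, 18, 8 and 19. Same-numbered untreated and copper libraries correlated at 0.048, 0.17 and 0.075 in Ishikawa and at -0.063, -0.042 and -0.084 in KLE cells. Libraries of different numbers correlated at -0.15 to 0.078 in Ishikawa and at -0.0093 to 0.069 in KLE cells. These values do not settle whether the numbers pair the samples. No called value changed sign under any alternative run. Values that were not called and did change sign, cause not tested, follow. Ishikawa: SLC7A6 -0.00 with library totals, -0.18 on log2(TPM + 1) and -0.19 on log2(TPM + 0.1). KLE: SLC1A4 -0.02 with library totals and both TPM scales and -0.03 under upper-quartile scaling; SLC36A1 0.00 with limma-voom, 0.03 and 0.04 on the TPM scales. Difference of responses: SLC43A1 -0.03 with RLE factors and DESeq2, -0.01 with no count filter and -0.00 with limma-voom; SLC7A1 0.03 with library totals and 0.06 on both TPM scales; SLC38A6 0.01 and 0.02 and SLC38A7 0.10 and 0.11 on the TPM scales. Untreated lines: SLC7A11 -0.01 with library totals and -0.04 on both TPM scales, SLC1A3 0.02 and SLC36A4 0.03 on both, and SLC7A6 -0.13 and -0.14. Leaving out 1 library gave -0.18 to 0.15 for SLC7A8 in Ishikawa, and in KLE -0.05 to 0.58 for SLC7A8, -0.02 to 0.06 for SLC1A4 and -0.06 to 0.08 for SLC36A1. For the difference of responses it gave -0.10 to 0.14 for SLC43A1, -0.76 to 0.56 for SLC7A7 and -0.11 to 0.00 for SLC7A1, and between untreated lines 0.00 to 0.07 for SLC7A11, -1.27 to 0.04 for SLC7A7 and -0.01 to 0.10 for SLC7A6. Depth limits SLC7A7, under 1 CPM on average in every group, and SLC38A3 and SLC38A4, under 1 CPM on average in at least 1 group.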
